A study of Mus musculus with 502 samples.

Results

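The silencers described here were called in 293T cells at places where neither K562 nor LNCap had a silencer nearby. A silencer is a stretch of DNA that lowers transcription of a gene it is linked to, usually by binding repressor proteins. The chosen 293T silencers lay on chromosomes 1 to 22, measured 50 to 300 bp, and had no listed K562 or LNCap silencer within 10 kb of either edge. They numbered 22739 of the 125249 usable silencers in the 293T list, or 19.3% of the 117517 that met the chromosome and width limits. They are called isolated 293T silencers below, and the other 94778 of the same chromosomes and widths are called the remaining 293T silencers. The choice used the calls of all 3 lines, so the isolation itself is not a finding, and it does not show that a silencer acts in 293T alone.

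The lists come from Ss-STARR-seq, a reporter assay in which sheared genomic DNA is cloned into a plasmid and transfected, and the RNA transcribed from it is sequenced. Because a plasmid carries the fragment, the assay reads what the sequence does away from its native chromatin. 293T is a human line derived from embryonic kidney that expresses the SV40 large T antigen, K562 is a chronic myeloid leukaemia line with erythroid features, and LNCap is an androgen-responsive prostate cancer line. The series has 461 libraries made from output RNA (293T, K562 and LNCap) and 41 made from plasmid input DNA, 1 of them for 293T and 40 for LNCap. No drug, genotype or time series distinguishes them. The labels call the organism mouse, whereas the line names, the build (hg38) and positions reaching past the mouse chromosome ends are human, and the lists were read as human. Each line is represented by 1 list, with no replicate list and no read counts. The differences below are therefore descriptions without a test across samples, and their intervals cover counting error only. The intervals count each silencer as independent, which close neighbours are not, so they may be too narrow. 293T has the fewest output RNA libraries, and whether their number bears on differences between the lists was not tested. Genes, repeats and DNA sequences at these positions were not analysed here, since no human genome or annotation was used.

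By the authors' activity score, isolated 293T silencers differed little from the remaining 293T silencers. The score's scale is not stated, and the deposited values start at 2. Both groups had a median of 2.3 with quartiles of 2.1 and 2.6. Scores of 3 or above were held by 3171 isolated silencers (13.9%, 95% Wilson interval 13.5 to 14.4), against 13575 of the remaining ones (14.3%, interval 14.1 to 14.5), where 14.2% of all 117517 reached that score. For scores of 4 or above the counts were 603 isolated (2.65%, interval 2.45 to 2.87) and 2590 remaining silencers (2.73%, interval 2.63 to 2.84), with 2.72% over both groups. The intervals overlapped at both thresholds. Small shifts lay lower in the range: the lowest score, 2.0, was held by 19.7% of isolated silencers (interval 19.2 to 20.3) and 18.5% of the remaining ones (interval 18.2 to 18.7). Scores of 2.5 to 2.9 were held by 20.8% of isolated silencers (interval 20.2 to 21.3) and 22.3% of the remaining ones (interval 22.01 to 22.5). At the top, scores of 5 or above made up 0.519% of isolated silencers (interval 0.434 to 0.621) and 0.657% of the remaining ones (interval 0.608 to 0.711). None of the isolated silencers had an infinite score, which 2 lines of the 293T list carry.

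**Figure D1:**
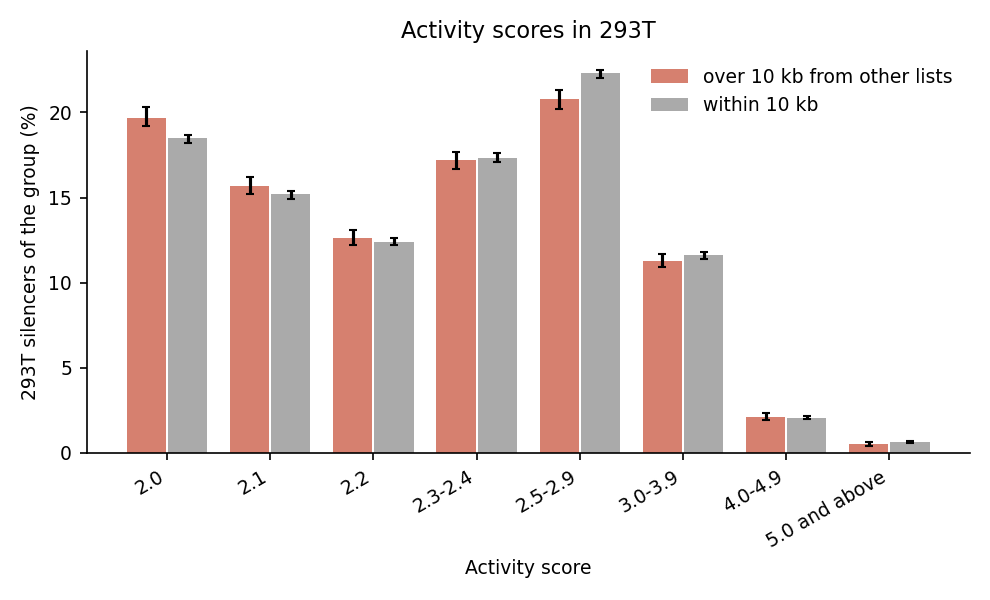
Share of isolated (left bar) and remaining (right bar) 293T silencers in each class of the authors' activity score, in percent of the group, with 95% Wilson intervals. The paired bars lie close together. The isolated group is slightly fuller at 2.0 (19.7% against 18.5%) and slightly emptier at 2.5 to 2.9 (20.8% against 22.3%).

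The other lists gave a different picture when the same rule was applied to them. Beyond 10 kb of the other lists, 7.41% of K562 silencers scored 3 or above (interval 7.02 to 7.81), against 10.4% within 10 kb (interval 10.2 to 10.6). For LNCap the shares were 8.42% beyond 10 kb (interval 8.02 to 8.84) and 12.3% within it (interval 12.1 to 12.5). The share beyond 10 kb was thus 0.974 times the share within it in 293T, 0.711 times in K562 and 0.685 times in LNCap. Silencers that overlapped or touched another list's made up 7930 of the 94778 within 10 kb for 293T. For K562 they were 24087 of 108614, and for LNCap 24644 of 111362. Scores of 3 or above were held by 18.8%, 14.8% and 19.1% of them, in that order. At 5 to 10 kb and 10 to 15 kb the shares lay closer. They were 13.6% and 13.7% for 293T, 8.32% and 7.42% for K562, and 9.34% and 8.85% for LNCap. How much overlapping silencers add to the ratios was not tested. Scores were compared inside each list, never between lists. The difference between lines was not tested, because each has 1 list.

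In 293T the high-scoring share was flat over the whole range from near to far, apart from its ends. Of 7930 silencers of the 293T list that overlapped or touched another list's silencer, 18.8% scored 3 or above (interval 17.9 to 19.6). The share was 14.4% at distances up to 1 kb and 13.6% at 5 to 10 kb. Among isolated silencers it was 13.7% at 10 to 15 kb, 14.3% at both 15 to 20 kb and 20 to 30 kb, and 12.9% at 30 to 50 kb. At 50 to 100 kb, 46 of 288 reached a score of 3 (15.97%, interval 12.2 to 20.6). Over 100 kb, 17 of 57 did (29.8%, interval 19.5 to 42.7), with a median score of 2.7. These 57 lay in 34 stretches, and 33 of them had no 293T neighbour within 10 kb. The others have close neighbours that are not independent, so the interval may be too narrow. Those 57 were also wider, 49.1% of them measuring exactly 50 bp (interval 36.6 to 61.7) against 65.9% of all isolated silencers.

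**Figure D2:**
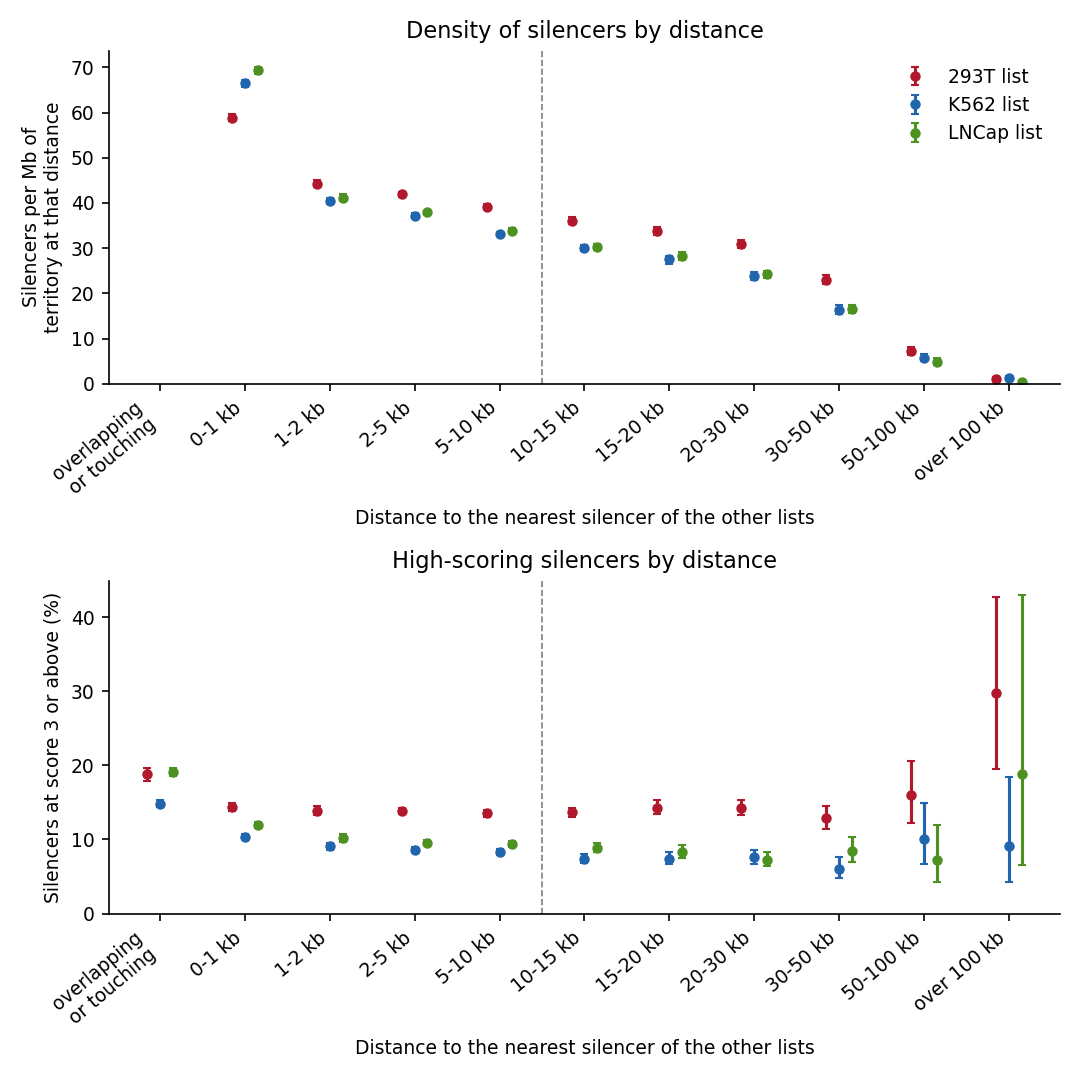
Distance from each silencer to the nearest silencer of the other lists (x axis) against silencers per Mb of territory at that distance (upper panel; exact 95% Poisson intervals) and the percentage with a score of 3 or above (lower panel; 95% Wilson intervals), for 293T, K562 and LNCap; the dashed line marks 10 kb. Density falls with distance in each list, from 58.9 per Mb up to 1 kb to 1.10 per Mb over 100 kb in 293T, while the 293T share of high scores stays between 12.9% and 14.4% from the first kb to 50 kb.

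The 5 isolated silencers with the highest scores were each 50 to 55 bp wide and lay on 4 chromosomes. The highest, at 7.6, lay on chromosome 4 from 185045721 to 185045771, with the nearest K562 silencer 16.3 kb and the nearest LNCap silencer 18.5 kb away. Next came a silencer of score 7.4 on chromosome 4 from 150393107 to 150393157, 20.9 kb from K562 and 10.7 kb from LNCap. Of the 3 with a score of 7.2, the one on chromosome 1 from 186510200 to 186510255 lay 27.9 kb from K562 and 62.5 kb from LNCap. The one on chromosome 2 from 204371400 to 204371451 lay 13.2 kb from K562 and 30.9 kb from LNCap. The one on chromosome 5 from 22104400 to 22104451 lay 19.2 kb from K562 and 19.3 kb from LNCap. All positions are on hg38, as deposited.

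Of these 5, 3 had another 293T silencer exactly 50 bp away, as did 12.7% of all isolated silencers. They were the silencers of score 7.4 on chromosome 4, 7.2 on chromosome 1 and 7.2 on chromosome 5. Their neighbours scored 2.6, 2.2 and 2.5. As the 5 were picked for the highest scores, lower scores beside them are not a finding. The strongest, on chromosome 4, had 2 neighbours within 5 kb, 1014 bp and 3520 bp away, with scores of 2.3 and 2.2. The silencer on chromosome 2 had no other 293T silencer within 28.4 kb. The chromosome 5 silencer opened a run of 7 isolated silencers that ended at 22124651, in which the other scores reached down to 2.0 and the median was 2.3.

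Across all isolated silencers, strong calls tended to stand beside strong calls at very short range. Of 529 isolated silencers whose nearest 293T neighbour lay exactly 50 bp away and scored 3 or above, 189 also scored 3 or above (35.7%, interval 31.8 to 39.9). When that neighbour scored below 3, the share was 14.5% (342 of 2353, interval 13.2 to 16.02). Neighbours up to 1 kb away included those at exactly 50 bp. In this wider class the shares were 29.3% (interval 26.7 to 32.2) beside a high-scoring neighbour and 14.4% (interval 13.4 to 15.4) beside a lower one. At 1 to 10 kb they came closer together, at 15.5% (interval 13.5 to 17.8) and 12.8% (interval 12.03 to 13.6). The remaining 293T silencers showed similar values, 38.2% and 13.98% at exactly 50 bp. Neighbours this close are not independent, since cloned fragments can span both, and each pair can count from both sides.

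Isolated silencers had fewer neighbours in their own list than the remaining ones. Another 293T silencer lay within 10 kb of 13699 isolated silencers (60.2%, interval 59.6 to 60.9), against 65837 of the remaining ones (69.5%, interval 69.2 to 69.8), with 67.7% over both groups. Within 1 kb the shares were 26.3% (interval 25.7 to 26.9) for isolated and 30.5% (interval 30.2 to 30.8) for remaining silencers. The median distance to the next 293T silencer was 6560 bp for isolated silencers and 4465 bp for the remaining ones. The same contrast was larger in the other lists. In K562, 52.4% of silencers beyond 10 kb of the other lists and 72.4% of those within it had a K562 neighbour within 10 kb. In LNCap the values were 54.7% and 73.5%.

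High scores were more frequent beside a close 293T neighbour, among isolated and remaining silencers alike. A score of 3 or above was held by 16.96% of the 5978 isolated silencers with a 293T neighbour within 1 kb (interval 16.03 to 17.9), against 12.9% of the 16761 without one (interval 12.4 to 13.4). The share was 12.6% among the 9040 with no 293T neighbour within 10 kb and 12.7% among the 773 with none within 50 kb. Remaining 293T silencers with a neighbour up to 1 kb away had shares of 31.4% beside a high-scoring one and 14.6% beside a lower one. At 1 to 10 kb these shares were 14.1% and 13.1%, and over 10 kb they were 12.2% and 12.4%. By width, the share of isolated silencers was 13.8% at exactly 50 bp, 15.2% above 50 and up to 100 bp (interval 14.2 to 16.3), 12.9% above 100 and up to 200 bp, and 11.8% above 200 bp (interval 9.65 to 14.2). The nearest outside silencer came from K562 for 11258 isolated silencers and from LNCap for 11180, and 301 were equally near to both. High scores made up 13.9% and 13.98% of the K562-nearest and LNCap-nearest ones.

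Isolated silencers resembled the remaining ones in width. Exactly 50 bp, the lower width limit, was the width of 65.9% of isolated (interval 65.3 to 66.5) and 65.3% of remaining silencers (interval 64.97 to 65.6). Their mean widths were 77.5 bp and 79.1 bp. In K562 63.4% of silencers beyond 10 kb and 59.6% of those within it measured 50 bp. In LNCap these shares were 65.4% and 61.5%. Because the rule bounds the width at 50 and 300 bp, widths are given as a description.

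The territory open to isolated silencers was the part of the autosomes more than 10 kb from any K562 or LNCap silencer. It formed 41132 stretches, of which 33 were over 1 Mb long. Those 33 covered 156.1 Mb and held 38 isolated silencers, so densities were taken over stretches up to 1 Mb, a limit set after the lists had been seen. On that basis the stretches made up 752.0 Mb, or 27.7% of the autosomes once the stretches over 1 Mb were taken out, and held 30.2 isolated silencers per Mb (exact 95% Poisson interval 29.8 to 30.6). Closer to K562 or LNCap silencers, 293T had 48.2 silencers per Mb (interval 47.9 to 48.5). The density of isolated silencers was thus 0.626 times that of the remaining ones. With every stretch counted it was 25.04 per Mb. Densities are per Mb of chromosome length, which includes any sequence that the assay or the alignment could not read. How much of the territory that was, above all in the longest stretches, was not tested.

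The corresponding silencers of the other lines were sparser. K562 held 24.4 silencers per Mb in its stretches free of 293T and LNCap silencers (interval 24.1 to 24.8), 0.455 times its density elsewhere. LNCap held 24.7 per Mb (interval 24.3 to 25.03), 0.448 times its density elsewhere. As a share of each list, 19.3% of 293T silencers (interval 19.1 to 19.6), 13.5% of K562 silencers (interval 13.3 to 13.7) and 13.5% of LNCap silencers (interval 13.3 to 13.6) lay beyond 10 kb of both other lists. Against a single other list, the shares were similar for every pair with 293T and lower between K562 and LNCap. Beyond 10 kb of K562 alone lay 37.99% of 293T silencers, and beyond 10 kb of LNCap alone 37.8%. In turn 39.5% of K562 and 39.5% of LNCap silencers lay beyond 10 kb of 293T. Between K562 and LNCap the shares were 29.4% and 29.5%. The median distance to the nearest K562 silencer was 6759 bp from a 293T silencer, and that from a K562 silencer to the nearest LNCap silencer was 4102 bp.

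With stretches over 1 Mb again left out, the density of 293T silencers was lower at each greater distance from the other lists. It was 58.9 per Mb within the first kb and 39.2 per Mb at 5 to 10 kb. Past the limit it was 36.1 per Mb at 10 to 15 kb, 33.8 at 15 to 20 kb, 30.9 at 20 to 30 kb and 23.04 at 30 to 50 kb. It then dropped to 7.16 per Mb at 50 to 100 kb (interval 6.35 to 8.04). K562 had 33.2 per Mb at 5 to 10 kb, 29.97 at 10 to 15 kb and 16.4 at 30 to 50 kb. LNCap had 33.9, 30.3 and 16.5 per Mb at these distances. No step marked the 10 kb limit in any list. The 3 isolated silencers closest to the limit lay 10001, 10002 and 10002 bp from another list and scored 2.1, 2.1 and 2.4. Of the 293T silencers left out at exactly 10000 bp, the first 3 in chromosome order scored 2.0, 2.2 and 3.1.

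The median distance from an isolated silencer to the nearest K562 or LNCap silencer was 15350 bp, and 90% lay within 29308 bp. The upper 99% point was 56132 bp. The median distance to the nearest K562 silencer and that to the nearest LNCap silencer were both 19600 bp. Because the rule cut on this distance, a median not far past the limit is not a finding. With limits of 5 kb and 20 kb the median was 9878 bp and 26070 bp.

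Most isolated silencers shared their stretch with few others. Stretches with at least 1 isolated silencer numbered 13353, or 32.5% of all. A single silencer was found in 7878 of them, 2 in 3225, 3 or 4 in 1868, and 5 or more in 382. Those 382 stretches held 2237 isolated silencers (9.84%). The median length was 21250 bp for stretches that held an isolated silencer and 10660 bp for all stretches. A longer stretch has more room to hold a silencer, so this difference is not a finding.

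Longer stretches were emptier per Mb. The density was 39.2 isolated silencers per Mb in stretches up to 10 kb (interval 37.9 to 40.6), 37.2 at 10 to 20 kb, 34.1 at 20 to 50 kb and 27.97 at 50 to 100 kb (interval 27.1 to 28.9). It fell to 14.2 at 100 to 200 kb (interval 13.2 to 15.3), 2.65 at 200 kb to 1 Mb (interval 2.27 to 3.08) and 0.243 over 1 Mb (interval 0.172 to 0.334). The longest gaps of the K562 and LNCap lists thus held few calls in 293T too, and whether silencers could be detected there was not tested. The high-scoring share was 13.97% at 20 to 50 kb (interval 13.3 to 14.7), 13.1% at 50 to 100 kb and 15.1% at 100 to 200 kb (interval 12.6 to 17.9). It was higher only in the longest classes, 21.3% at 200 kb to 1 Mb (36 silencers, interval 15.8 to 28.1) and 23.7% over 1 Mb (9 of 38, interval 12.99 to 39.2). The last interval includes the share at 20 to 50 kb. These longest classes also hold the 57 silencers over 100 kb from both other lists, 17 of them at score 3 or above, so those results overlap.

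**Figure D3:**
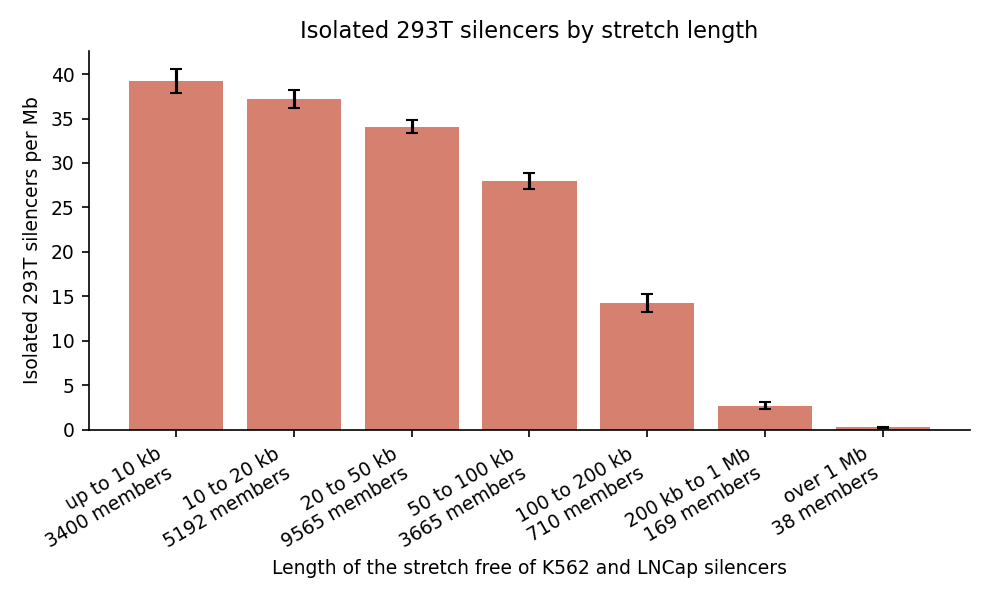
Isolated 293T silencers per Mb (y axis, exact 95% Poisson intervals) in stretches free of K562 and LNCap silencers, grouped by stretch length (x axis, with the number of isolated silencers in each class). The bars fall from 39.2 per Mb in stretches up to 10 kb to 0.243 per Mb in those over 1 Mb.

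The stretch with most isolated silencers lay on chromosome 9 from 108154521 to 108278901 and held 13 over 124.4 kb. Their scores ran from 2.0 to 3.9 with a median of 2.6, and 2 reached 3. Stretches with 12 each lay on chromosome 3 from 165672351 to 165778001 (highest score 3.6), chromosome 12 from 92645909 to 92762751 (highest score 4.1) and chromosome 1 from 97823851 to 97961151 (highest score 3.5). A stretch on chromosome 2 from 197715514 to 197826401 held 11. The last with 10 or more were on chromosome 10 from 62228611 to 62286829 and chromosome 3 from 17602619 to 17703273, with 10 each. The chromosome 10 stretch was the most crowded of the 7, at 171.8 per Mb over 58.2 kb, yet none of its silencers scored above 2.8. Another 13 stretches held 9.

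**Figure D4:**
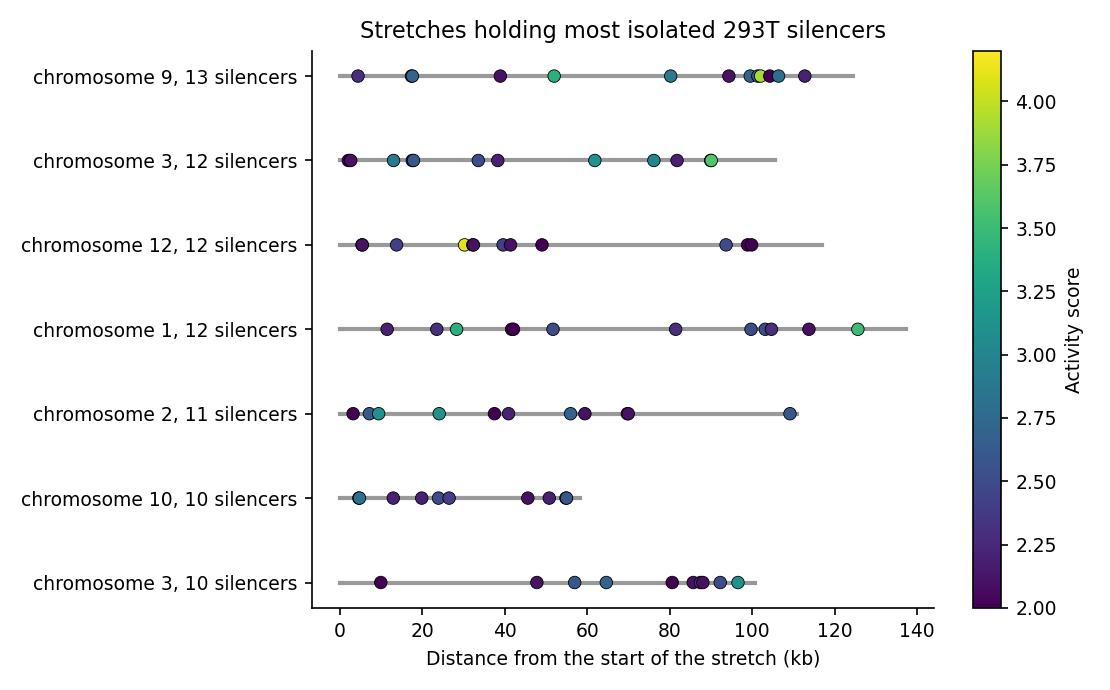
Positions of isolated 293T silencers (points, coloured by activity score) along the 7 stretches that hold 10 or more of them; the x axis is the distance from the start of the stretch in kb and the grey line its length. Silencers are spread along each stretch, with close groups such as the one near the right end on chromosome 9.

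Isolated silencers were also joined into runs with steps of at most 10 kb, each of which lies inside 1 stretch. Such runs of 2 or more held 11560 isolated silencers, and 11179 stood outside any run. Runs of 5 or more held 726. The longest had 9 silencers over 26.97 kb on chromosome 18 from 44303935 to 44330901, with scores of 2.0 to 3.5. Runs of 8 lay on chromosome 15 from 52714051 to 52728501 (14.4 kb), chromosome 18 from 66195601 to 66211201 (15.6 kb) and chromosome 3 from 164165151 to 164200851 (35.7 kb). Their median scores were 2.3, 2.8 and 2.4. The most compact run of 7 spanned 6.40 kb on chromosome 13 from 24507889 to 24514291. It also had the highest median of the runs of 7 or more, 3.2, with 4 of 7 silencers at 3 or above and a highest score of 5.1.

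The most remote isolated silencers lay in long stretches, which follows from the rule. A stretch holds no K562 or LNCap silencer by definition, and a silencer far from both lists needs a long one. Their place in long stretches is therefore not a finding. Whether silencers could be detected throughout these stretches was not tested, so the distances below may not reflect true isolation. The 57 beyond 100 kb of another list were spread over 34 stretches on 19 chromosomes, 9 of them on chromosome 9. Of these 57, 20 lay in stretches over 1 Mb and 37 in stretches of 200 kb to 1 Mb. The farthest was on chromosome 16 from 38278401 to 38278551, 983.1 kb from a K562 silencer, with a score of 2.0. Another on chromosome 16 from 38048100 to 38048151 (score 2.6) was 752.8 kb away. One on chromosome 11 from 53808550 to 53808801 (score 3.3) was 729.3 kb from K562 and 749.8 kb from LNCap. On chromosome 15, silencers from 29958701 to 29958901 (score 2.3) and from 29998051 to 29998101 (score 3.0) were 528.4 kb and 489.2 kb from K562. The 3 longest stretches with an isolated silencer, on chromosomes 1, 15 and 9, ran for 18.1, 17.02 and 15.5 Mb and held 1, 2 and 3.

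The share of the 293T list that was isolated differed between chromosomes. It was highest on chromosomes 6 (24.6%, interval 23.6 to 25.6), 5 (23.3%, interval 22.3 to 24.3) and 1 (22.4%, interval 21.5 to 23.3). It was lowest on chromosomes 19 (4.84%, interval 4.16 to 5.62), 17 (10.5%, interval 9.59 to 11.6) and 22 (14.3%, interval 12.5 to 16.3). The 293T share was above the K562 share on 22 of 22 autosomes and above the LNCap share on 21 of 22. The exception was chromosome 19, at 4.84% for 293T, 4.10% for K562 and 4.86% for LNCap. With stretches over 1 Mb left out of both the stretches and the chromosome, the part open to isolated silencers was 31.3% of chromosome 6. It was 29.1% of chromosome 5, 33.6% of chromosome 1, 11.8% of chromosome 19, 23.2% of chromosome 17 and 30.1% of chromosome 22. The largest part, 35.3%, was on chromosome 21, where 21.6% of the 293T silencers were isolated.

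Within the qualifying stretches the order of chromosomes was different. Chromosome 4 was the densest with 39.6 isolated silencers per Mb (interval 37.9 to 41.5), followed by chromosome 3 with 36.9 (interval 35.3 to 38.6) and chromosome 14 with 33.8 (interval 31.4 to 36.3). The sparsest were chromosomes 22 with 16.1 (interval 13.8 to 18.6), 21 with 19.1 (interval 16.8 to 21.6) and 17 with 20.7 per Mb (interval 18.7 to 22.9). Intervals of neighbours in this order, such as chromosomes 3 and 4 or 21 and 22, touched or overlapped. Chromosome 19, the lowest by share, had 24.03 per Mb (interval 20.4 to 28.1). Isolated silencers were sparser than the remaining ones on 22 of 22 autosomes. The ratio of the densities ran from 0.364 on chromosome 19 (24.03 against 66.1 per Mb) to 0.767 on chromosome 3 (36.9 against 48.2 per Mb).

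**Figure D5:**
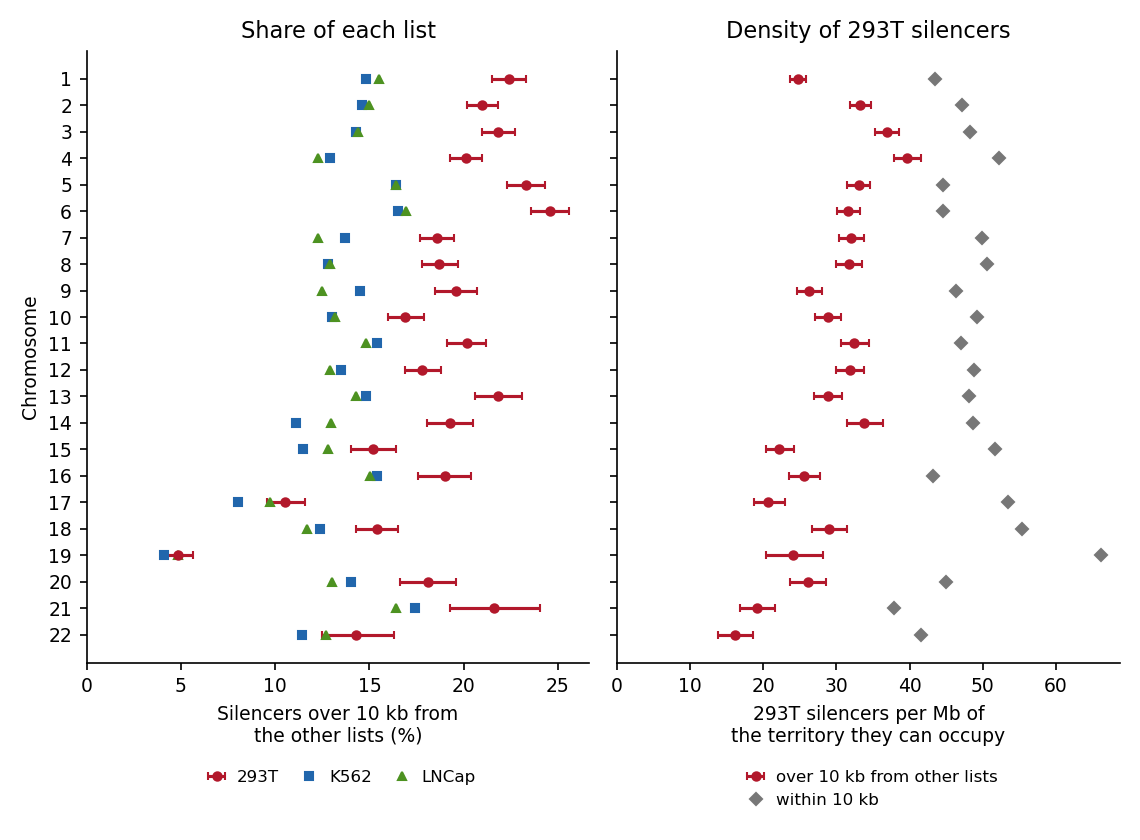
Left, percentage of each list's silencers that lie over 10 kb from both other lists, by chromosome, for 293T (95% Wilson intervals), K562 and LNCap. Right, density of isolated (circles, exact 95% Poisson intervals) and remaining (diamonds) 293T silencers per Mb; the isolated ones are sparser on each chromosome, with the widest separation on chromosome 19.

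By chromosome, the share of isolated silencers at 3 or above lay between 10.4% on chromosome 22 (interval 6.79 to 15.7) and 15.8% on chromosome 16 (interval 13 to 18.98). It exceeded the share among the remaining 293T silencers on 8 of 22 autosomes.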

How the data were processed

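The authors deposited 3 silencer lists, 1 for each line. Per the file headers, a list gives the position and the activity of every silencer. Activity is a score that the authors deposited with 1 decimal, on a scale that is not stated. Bowtie2, SAMtools and build hg38 are named, without versions or roles, in the submitters' processing notes; the sources used here do not give the caller, its thresholds, the input or how libraries were pooled. Without counts in the lists, depth is unknown.

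Broken lines, and lines wider than 5000 bp, were left out (58 for 293T, 12 for K562, 25 for LNCap). Distances run edge to edge, and 10000 bp counts as within 10 kb. Chromosome lengths were the highest end in any list. Shares carry 95% Wilson and densities exact 95% Poisson intervals. Libraries were grouped by their titles; no library was analysed singly. The silencers, rules and comparisons were chosen with earlier results of these data known. The rule names the 5 highest-scoring and 5 farthest silencers, the 3 on either side of the limit, the fullest and longest stretches, runs of 5 or more, and the 3 highest and lowest chromosomes. The eighth fullest stretch was tied among 13 and is not named, and of the runs those with 8 or more and the tightest run of 7 are given. The planned counts of motifs, base composition, gene features and gene lists were not made, since no human genome was used here. Distances and calls were tested on simulated data, where 1200 of 1200 silencers matched a direct search. Alternatives varied the limit, the widths, merging and the scores. Tools were Python 3.11.15 with pandas 2.3.3, numpy 2.4.6 and scipy 1.17.1; plots used matplotlib 3.10.9.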

Additional observations from a re-analysis of the deposited data

Results flagged for a closer look

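Silencers outside the chromosome and width limits also met the distance rule. On chromosome X, 1537 of 5992 silencers of 50 to 300 bp in the 293T list lay over 10 kb from both other lists (25.7%, 95% Wilson interval 24.6 to 26.8), against 15.6% in K562 (interval 14.7 to 16.6) and 17.04% in LNCap (interval 16.1 to 18.02). Of 1663 autosomal 293T silencers wider than 300 bp, 300 lay over 10 kb from both other lists (18.04%, interval 16.3 to 19.96), against 6.76% of 2973 in K562 (interval 5.91 to 7.72) and 7.73% of 2990 in LNCap (interval 6.82 to 8.74). Both are given because they belong to data that the comparisons above leave out. The differences between lines were not tested.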

How the results depend on the processing

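Of 44 alternative values, 19 stayed inside the counting interval of the value reported and 25 did not. The share of 293T silencers that are isolated (19.3%) was 39.4% with a 5 kb limit, 5.54% with 20 kb, 19.9% after merging silencers within 500 bp, 41.1% against K562 and LNCap silencers above their median score, and 18.6% for 293T silencers above theirs. The ratio of the 293T share to the mean K562 and LNCap share (1.44) was, in that order, 1.34, 1.63, 1.38, 1.16 and 1.56. It was 1.37 for silencers of exactly 50 bp. For this ratio the score settings applied to all 3 lines alike. The value of 1.16 used only the higher-scoring silencers of each line's other lists, and 1.56 only those of its own list. The share with another 293T silencer within 10 kb (60.2%) was 63.1%, 57.9%, 48.3%, 62.6% and 62.98%. The median distance to another list (15350 bp) was 9878 bp with 5 kb, 26070 bp with 20 kb and 20060 bp against higher-scoring K562 and LNCap silencers. The share at score 3 or above (13.9%) was 14.5% after merging, which keeps the highest score, and by construction 33.2% above the median score. It was 13.9% without the silencers beyond 100 kb, an alternative chosen after seeing the data. The share of exactly 50 bp (65.9%) was 65.1% at any width, 60.5% after merging and by construction 100% when other widths were left out. Counting every stretch, also chosen after seeing the data, gave a density of 25.04 per Mb in place of 30.2. No paired analysis was possible because each line has 1 list that names no library, so replicate numbers and leaving out a replicate do not apply.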
